A study of Mus musculus with 2 samples.

Results

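The Wnt pathway was described here through 32 genes that encode its ligands, receptors and signal transducers, in mouse hematopoietic stem cells (HSC, the bone marrow cells that can rebuild all blood lineages) labelled Sirt6 knockout or wild type. The genes were found by matching their symbol or a synonym to the platform annotation, and only probe sets that name a single gene were used. All 32 were present among 18194 named genes, on 88 of 45037 probe sets. The study hybridised 2 Affymetrix arrays, 1 with RNA of HSC labelled SIRT6 knockout and 1 with RNA of wild type HSC, with mice 3 months old in either case. No array had a replicate. The sources used here do not give how Sirt6 was disrupted, whether the loss was limited to blood cells, how the HSC were sorted or how many mice were pooled. Sirt6 is a nuclear deacylase of histones, and the work these arrays belong to is known to have asked about Wnt signalling in HSC that lack it. The single Sirt6 probe set read 174 on the knockout array and 124 in wild type, so it was not lower under the knockout label. The sources used here do not say which part of the transcript it covers, so it does not check the genotype. The array labelled knockout is called the knockout array below, and every direction rests on that label.

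Wnt proteins are lipid-modified secreted ligands that bind Frizzled receptors together with the co-receptors Lrp5 and Lrp6. Without a ligand, a cytoplasmic complex built on Axin and Apc holds beta-catenin while the kinases Csnk1a1 and Gsk3 phosphorylate it, and the ubiquitin ligase adaptor Btrc then marks it for destruction. A bound ligand recruits Dishevelled proteins, the complex is disabled, and beta-catenin enters the nucleus, where it turns Tcf/Lef factors from repressors that carry Tle proteins into activators that carry Bcl9 and Pygo. In bone marrow, Wnt signals are known to affect how HSC renew and differentiate.

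Each value below is a linear signal intensity of a probe set, already scaled by the authors. The probe set whose log2 signal, averaged over the 2 arrays, was highest stood for its gene. Since dim MAS5 values are noisy, the median of this average over all probe sets, a signal of 60.5, served as a floor. A gene was called measured when the probe set that represents it exceeded this floor on at least 1 array. Values below the floor were replaced by it, which makes a ratio against them a bound. Ratios are knockout over wild type on the log2 scale. With 1 array per genotype there is no biological error, no test and no p-value, and the number of arrays limits the precision. Log2 ratios of probe sets that share a gene had an SD of 0.22 over 4632 genes. This SD between probe sets measures how far they disagree, and not the error between arrays or mice. It was pooled over all signals, while the SD of gene ratios was 0.32 at log2 6 to 7 and 0.14 at log2 11 to 14. Signals of different probe sets are not comparable with each other as levels of different genes.

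At this floor, genes that act inside the cell were measured in nearly every case and most ligands and many receptors were not (with a floor at percentile 25, or none, all 32 count as measured). Signals above the floor on both arrays were close. Of the 32 members, 22 were measured, 19 of them on both arrays and 3 in wild type alone. By the floored ratio, 0 of the 22 passed 1.5-fold on the higher side and 0 on the lower side, although the 3 measured in wild type alone are bounds whose true ratio may be larger. With a floor at percentile 25 or with none, Fzd3 alone passed that size, on the lower side (log2 ratio -0.99). Of all 11547 measured genes 1.71% passed this size on the higher side and 2.63% on the lower side, 4.35% in all, so a count of 0 among 22 is near the background. Of the 19 members above the floor on both arrays, 8 had a ratio below 0 and 11 above, with a median log2 ratio of 0.0069, against 50.2% below 0 and a median of -0.00083 over all 10831 such genes. Over all 32 members as deposited, 15 ratios lay below 0 and 17 above.

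**Figure D1:**
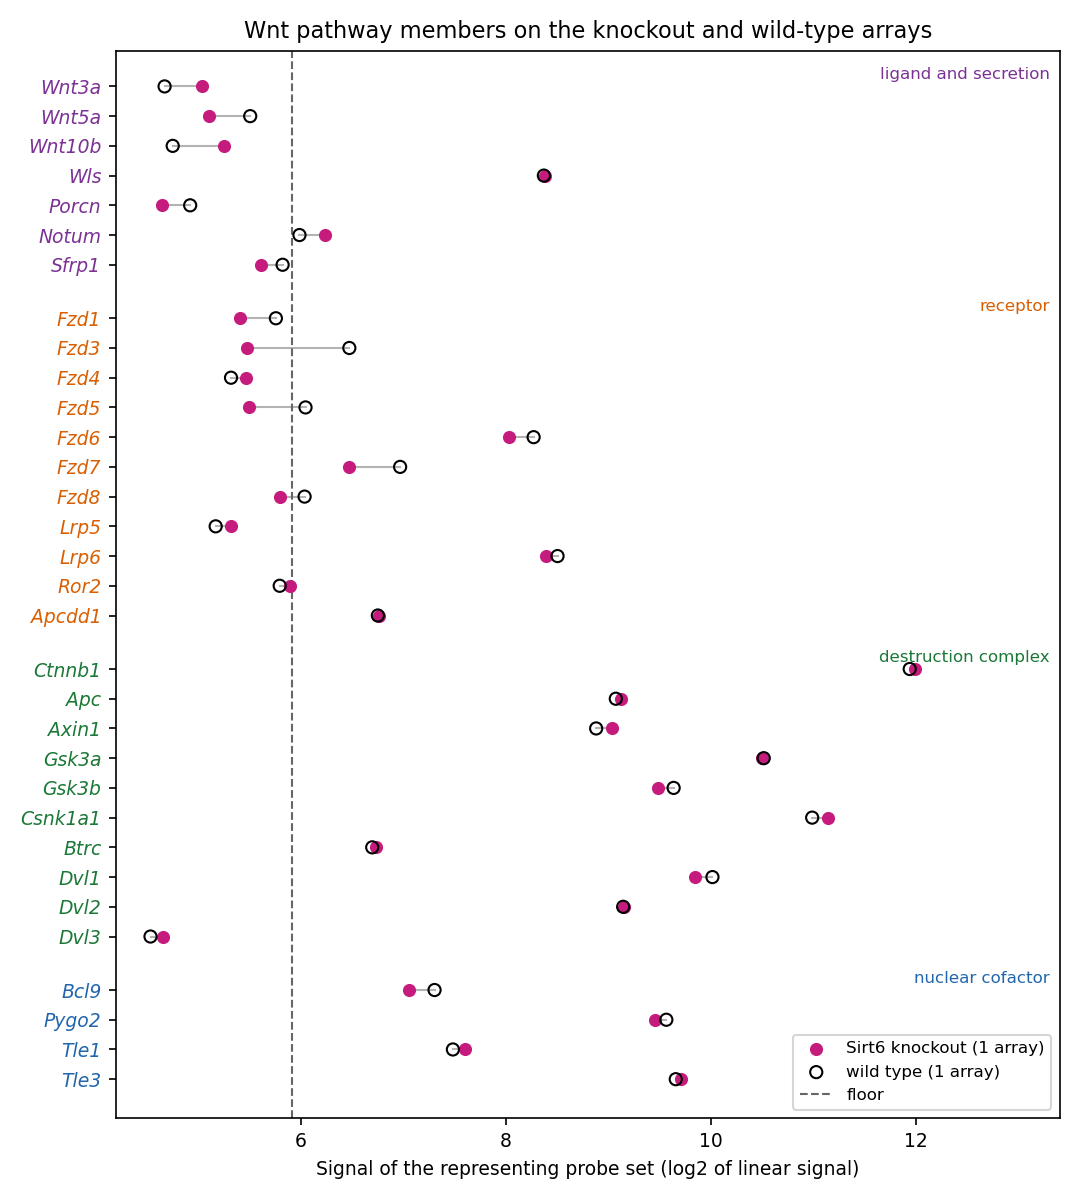
Signal of the representing probe set (horizontal axis, log2 of linear signal) for the 32 members, grouped by role, on the Sirt6 knockout array (filled) and the wild-type array (open); the dashed line is the floor. Members of the destruction complex other than Dvl3 lie above the floor on both arrays, whereas the 3 Wnt ligands lie below it on both; positions of different genes are not comparable levels.

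The promoters of 2 Frizzled receptors are shown. Fzd7 was chosen because, by its representing probe set, it had the largest difference of any member above the floor on both arrays. Fzd5 is a relative measured in wild type alone. Other, non-representing probe sets of Axin1 (log2 ratio 0.74), Wls (-0.67) and Lrp6 (-0.61) differed by more than that of Fzd7 (-0.50). Their signals, too, exceeded the floor in knockout and wild type. Promoter windows (250 bases before to 50 after the start of the gene, RefSeq, GRCm38.p6) were found for 18 of the 32 members. They were searched on both strands for CTTTGA and CTTTGT, core forms of the site that Tcf/Lef factors bind, and a match is shown in capitals.
Fzd7, chr1:59481897-59482196, plus strand: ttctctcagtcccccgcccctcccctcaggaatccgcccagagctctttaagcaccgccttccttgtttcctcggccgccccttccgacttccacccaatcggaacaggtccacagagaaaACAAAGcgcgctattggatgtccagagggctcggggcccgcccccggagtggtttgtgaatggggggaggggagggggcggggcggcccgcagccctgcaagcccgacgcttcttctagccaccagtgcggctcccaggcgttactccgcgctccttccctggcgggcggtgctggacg
Fzd5, chr1:64737701-64738000, minus strand: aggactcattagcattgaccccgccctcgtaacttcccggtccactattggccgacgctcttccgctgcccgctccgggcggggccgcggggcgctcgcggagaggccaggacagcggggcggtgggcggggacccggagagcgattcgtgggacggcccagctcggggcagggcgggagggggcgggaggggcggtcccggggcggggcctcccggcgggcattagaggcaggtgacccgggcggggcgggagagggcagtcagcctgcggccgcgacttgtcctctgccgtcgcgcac
The Fzd7 window held 1 match, on the opposite strand, and the Fzd5 window held 0. Among the 21 windows of members (some genes have several), 5 held a match (23.8%), against 28.3% of 21262 windows of protein-coding genes. Most member windows were rich in GC: their median GC content was 72.3% with 29 CpG sites, against 56.3% and 13 over windows of protein-coding genes. Of the 21 windows 18 lay above that 56.3%, and those of Fzd1, Gsk3a and Tle3 did not. Windows of the same gene, some of them overlapping, were counted separately, and no other gene list was compared. A match of 6 letters is a description of the window and does not show that a factor binds there.

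Among ligands and the genes of their secretion, 2 of 7 members were measured, the carrier Wls and the Wnt-inactivating enzyme Notum. The ligand Wnt3a, which acts through beta-catenin, had a signal of 32.9 on the knockout array and 25.6 in wild type. Wnt10b, also a beta-catenin ligand, read 38.1 on the knockout array and 27.0 in wild type, and Wnt5a, best known for signals that do not use beta-catenin, read 34.5 on the knockout array and 45.6 in wild type. All 3 ligands stayed under the floor on both, as were all 4 probe sets of Wnt5a. Porcn, the enzyme that attaches the lipid to Wnt proteins, read 25.1 on the knockout array and 30.4 in wild type, also under the floor.

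Wls, the membrane protein that carries lipid-modified Wnts to the cell surface, read 333 on the knockout array and 331 in wild type, a log2 ratio of 0.0072. Its second probe set matched that (0.0012), while another read 217 on the knockout array and 345 in wild type (-0.67), so the Wls value depends on which probe set is read. Notum, which removes the lipid from Wnt proteins and is itself a Wnt target in several tissues, read 75.6 on the knockout array and 63.6 in wild type, a log2 ratio of 0.25 just above the floor. Sfrp1, a secreted protein that binds Wnts and can block them, was not measured on its representing probe set (48.9 on the knockout array and 56.7 in wild type). On 1 of its other 4 probe sets Sfrp1 lay above the floor in wild type alone, at 33.7 on the knockout array and 74.5 in wild type. The sign of this bound (at least 1.23-fold lower) was set by the floor. Another Sfrp1 probe set, under the floor on both arrays, read 51.5 on the knockout array and 47.8 in wild type.

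Of 11 receptor members 7 were measured, 4 of them on both arrays. Of these 4, Fzd6, Fzd7 and Lrp6 had lower signal on the knockout array and Apcdd1 did not, with log2 ratios from -0.50 to 0.0069. The other 3, Fzd3, Fzd5 and Fzd8, passed the floor through wild type alone, so a ratio below 0 was set by the floor and their sign adds nothing. Over all 11 as deposited, 7 ratios lay below 0 and 4 above. On the same arrays the median log2 ratio was -0.53 for HSC markers and 0.65 for granulocyte and monocyte markers, and their part in the receptor signals was not tested.

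Fzd7, a Frizzled receptor of the beta-catenin branch, read 88.7 on the knockout array and 125 in wild type, a log2 ratio of -0.50. Among 1885 genes of like signal (log2 6 to 7, above the floor on both arrays) the central 95% of ratios ran from -0.71 to 0.57, and Fzd7 lay inside that range at percentile 5.54. Its other probe set was under the floor on both arrays, so the value rests on a single probe set. Fzd6, a receptor known from planar cell polarity in mouse skin, read 262 on the knockout array and 309 in wild type (log2 ratio -0.24), also on its 1 measured probe set.

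Fzd3, which guides growing axons in the mouse, read 44.7 on the knockout array and 89.0 in wild type, at least 1.47-fold lower. A second Fzd3 probe set read 57.1 on the knockout array and 66.1 in wild type, a bound of at least 1.09-fold lower, and its other 4 probe sets did not exceed the floor on either array. Fzd5 read 45.3 on the knockout array and 66.2 in wild type, and Fzd8 55.5 on the knockout array and 65.8 in wild type, each at least 1.09-fold lower. Fzd3, Fzd5 and Fzd8 were thus above the floor in wild type alone.

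Without a floor, the Fzd3 ratio became -0.99 and that of Fzd5 -0.55, both from knockout values under the floor. Fzd1 read 42.5 on the knockout array and 54.2 in wild type, and Fzd4 44.4 on the knockout array and 40.0 in wild type. Both genes stayed under the floor on both arrays, as were the family members Fzd2, Fzd9 and Fzd10, which are not among the 32. Of the 10 Frizzled genes on the arrays, 2 (Fzd6 and Fzd7) were above the floor on both, and as deposited 6 of the 10 ratios lay below 0 and 4 above.

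Lrp6, the co-receptor that is phosphorylated when a Wnt binds, read 336 on the knockout array and 363 in wild type (log2 ratio -0.11). Its other probe set read 72.0 on the knockout array and 110 in wild type (-0.61), past 1.5-fold. Both Lrp6 probe sets pointed the same way but differed in size by more than the SD between probe sets. Its relative Lrp5 was under the floor, with 39.9 on the knockout array and 36.1 in wild type. Ror2, a receptor tyrosine kinase for Wnt5a, lay just under it, with 59.5 on the knockout array and 55.6 in wild type.

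Apcdd1, a membrane protein that binds Wnt and Lrp5 and inhibits the pathway, was placed with the receptors. It read 108 on the knockout array and 108 in wild type, a log2 ratio of 0.0069. Its other 2 measured probe sets were above the floor on the knockout array alone and gave at least 1.08-fold and 1.33-fold higher. The sign of those bounds was likewise set by the floor.

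**Figure D2:**
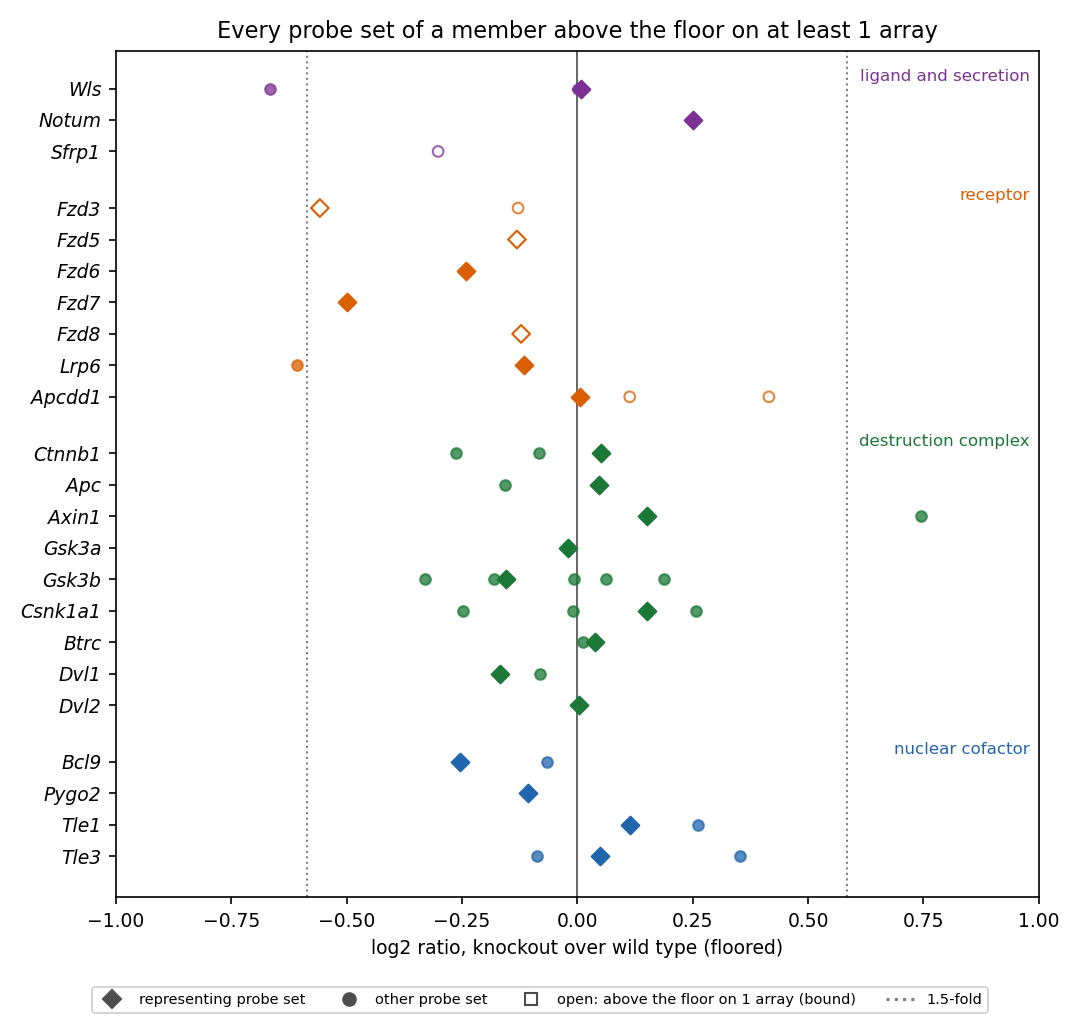
Log2 ratio of knockout over wild type (horizontal axis, floored) for the 47 probe sets of members above the floor on at least 1 array; diamonds represent the gene, circles are its other probe sets, open symbols are bounds and dotted lines mark 1.5-fold. Past 1.5-fold lie 1 probe set each of Wls and Lrp6 on the lower side and 1 of Axin1 on the higher side, and none of these represents its gene.

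The destruction complex and the transducers that act on it were measured nearly in full and were flat on their representing probe sets. Over all 23 measured probe sets of this group, log2 ratios ran from -0.33 (Gsk3b) to 0.74 (Axin1). Of 10 members 9 were measured, all 9 above the floor on both arrays and all 9 within 0.2 of 0 on the log2 scale. The median log2 ratio was 0.04, with 3 ratios below 0 and 6 above. Dvl3 was the exception in detection, with 25.2 on the knockout array and 23.2 in wild type on its only probe set.

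Beta-catenin itself, Ctnnb1, read 4067 on the knockout array and 3923 in wild type, a log2 ratio of 0.05. Its other probe sets read 796 on the knockout array and 844 in wild type (-0.08), and 116 on the knockout array and 139 in wild type (-0.26). The 3 probe sets did not share a direction, so the Ctnnb1 transcript showed no difference that exceeded the spread between them. The level of beta-catenin protein, which the pathway controls, was not measured by these arrays.

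The scaffold Apc, whose loss stabilises beta-catenin, read 556 on the knockout array and 539 in wild type (log2 ratio 0.05), with its second measured probe set at -0.16. Axin1, the scaffold whose amount is thought to limit the complex, read 524 on the knockout array and 472 in wild type (0.15). The other Axin1 probe set read 122 on the knockout array and 72.6 in wild type (0.74), the only member probe set at least 1.5-fold higher. The Axin1 probe sets thus agreed in direction and not in size.

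Gsk3a, a kinase that phosphorylates beta-catenin, read 1442 on the knockout array and 1463 in wild type (log2 ratio -0.02) on its only probe set. Gsk3b, its close relative in the same step, read 715 on the knockout array and 796 in wild type (-0.16). All 6 probe sets of Gsk3b were above the floor on both arrays, and they ranged from -0.33 to 0.19. Csnk1a1, the casein kinase that primes beta-catenin for Gsk3, read 2254 on the knockout array and 2030 in wild type (0.15), with 4 measured probe sets from -0.25 to 0.26. For both kinases the probe sets scattered on either side of 0.

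Btrc, the adaptor that recognises phosphorylated beta-catenin, read 107 on the knockout array and 104 in wild type (log2 ratio 0.04), and 0.01 on its second measured probe set. Of the Dishevelled genes, which carry the signal from Frizzled to the complex, Dvl1 read 921 on the knockout array and 1035 in wild type (-0.17). Dvl2 read 567 on the knockout array and 566 in wild type (0.0036). Both probe sets of Dvl1 lay below 0, the second at -0.08, and both differences were smaller than the SD between probe sets.

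Nuclear cofactors were all measured, 4 of 4 on both arrays, with a median log2 ratio of -0.03 and a range from -0.25 to 0.11. Bcl9, which links beta-catenin to Pygo proteins, read 133 on the knockout array and 158 in wild type (-0.25), with its second probe set at -0.07. Pygo2, the Pygo protein that reads methylated histone H3, read 704 on the knockout array and 758 in wild type (-0.11). These coactivators had ratios below 0 on all 3 of their probe sets, by amounts near or under the SD between probe sets.

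The corepressors had ratios above 0 on their representing probe sets. Tle1 read 194 on the knockout array and 179 in wild type (log2 ratio 0.11), and 0.26 on its second probe set. Tle3 read 835 on the knockout array and 808 in wild type (0.05), with its other measured probe sets at -0.09 and 0.35. The difference in sign between coactivators and corepressors rests on 2 genes each and was not tested.

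Across roles, agreement between probe sets of a member was limited. Where a member had 2 or more probe sets over the floor on both arrays, as 12 did, all probe sets were lower on the knockout array in 3 (Lrp6, Dvl1 and Bcl9), all were higher in 3 (Axin1, Btrc and Tle1), and 6 were mixed. Over all genes with at least 2 such probe sets, 52.4% had all of them on the same side. The median distance between the highest and lowest log2 ratio of a member was 0.38. Of the 47 measured probe sets, 1 was at least 1.5-fold higher and 2 were at least 1.5-fold lower, together 6.38%, against 1.6% higher and 3.55% lower (5.15% together) over all 19881 measured probe sets that name 1 gene. All 19 members above the floor on both arrays lay between percentiles 2.5 and 97.5 of genes of like signal, from percentile 5.54 (Fzd7) to 85.8 (Csnk1a1).

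**Figure D3:**
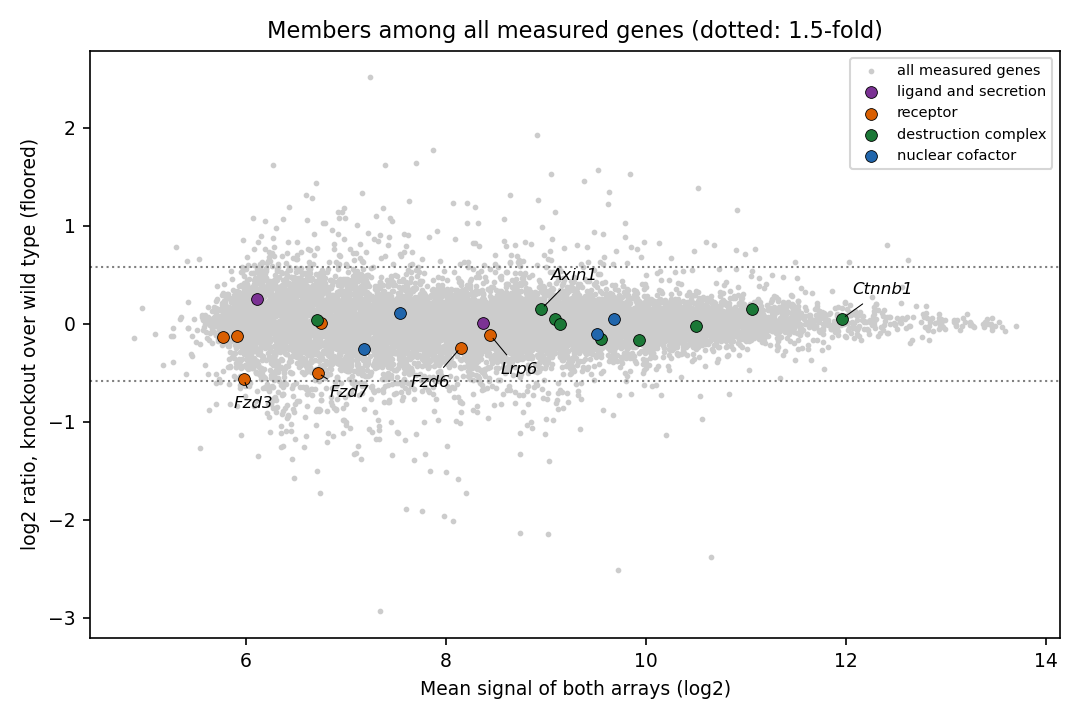
Log2 ratio of knockout over wild type (vertical axis, floored) against mean log2 signal of both arrays (horizontal axis) for 11547 measured genes (grey) and 22 members coloured by role; dotted lines mark 1.5-fold. The members lie inside the cloud of all genes, with Fzd3 and Fzd7 nearest to the lower 1.5-fold line.

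A further 102 genes of the pathway, listed by role, were read the same way. Of these, 99 had a probe set naming them alone and 62 were measured, 56 of them on both arrays, where the median log2 ratio was -0.01 with 29 ratios below 0 and 27 above. At least 1.5-fold higher was 1 of the 62 and at least 1.5-fold lower were 3, beside the 1.71% and 2.63% of all genes given above. The lower genes were Lgr4, Ppp2r5e and Tle2, and the higher gene was Csnk2a1. Of these, Lgr4 passed the floor through wild type alone, so its direction was set by the floor.

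Among the other ligands and secreted regulators, 6 of 29 were measured and 0 passed 1.5-fold. Wnt7b, a ligand, read 106 on the knockout array and 80.5 in wild type (log2 ratio 0.39). Rspo4, of the R-spondins that amplify Wnt signals, had 0.13. Wnt7a was above the floor on the knockout array alone, so the sign of its bound (at least 1.17-fold higher) was set by the floor. Of all 19 Wnt ligand genes, members included, 16 lay under the floor on both arrays. The other measured ligand was Wnt11, named after its value was seen, with 173 on the knockout array and 182 in wild type.

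Among the other receptors 9 of 18 were measured. Lgr4, the R-spondin receptor, read 46.2 on the knockout array and 91.2 in wild type, a bound of at least 1.51-fold lower. Because it passed the floor through wild type alone, the sign of this bound was set by the floor. Celsr3, a cadherin of planar cell polarity, was above the floor on the knockout array alone. Its bound was at least 1.31-fold higher, with a sign likewise set by the floor. Ptk7, a co-receptor of the same branch, read 104 on the knockout array and 80.5 in wild type (log2 ratio 0.37). Of the 6 above the floor on both arrays, 3 had a ratio below 0 and 3 above.

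In the list around the destruction complex, 26 of 31 genes were measured, with a median log2 ratio of -0.01. Csnk2a1, a catalytic subunit of casein kinase 2, read 1215 on the knockout array and 704 in wild type (0.79), but its other 5 measured probe sets ranged from -0.71 to 0.61. Ppp2r5e, a regulatory subunit of protein phosphatase 2A, read 396 on the knockout array and 673 in wild type (-0.76), with others from -0.80 to 0.40. Apc2, a relative of Apc, was above the floor on the knockout array alone, so the sign of its bound (at least 1.39-fold higher) was set by the floor. The calls of Csnk2a1 and Ppp2r5e thus depended on the probe set.

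Among other nuclear factors 21 of 24 were measured, with a median log2 ratio of 0.01. Tle2, a corepressor related to Tle1 and Tle3, read 132 on the knockout array and 227 in wild type (-0.78) on its 1 measured probe set. Bcl9l, the relative of Bcl9, read 362 on the knockout array and 515 in wild type (-0.51). Chd8, a chromatin remodeller that binds beta-catenin, had 0.23 on its representing probe set and -1.11 to -0.01 on others. The Tcf/Lef factors Tcf7l1 (-0.09) and Tcf7l2 (-0.03) were flat, and Lef1 and the feedback target Axin2 stayed under the floor on both (43.7 and 29.3 on the knockout array, 19.95 and 30.4 in wild type).

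Signs of the cells were read beside these values. Of 16 genes on the HSC marker list 14 had a probe set and all 14 were above the floor on both arrays. The list includes genes that are not specific to HSC, such as Kit, Cd34 and Cd48, and they count in the values below. A ratio above 0 in these genes is therefore not a sign of more HSC. The median log2 ratio of the 14 was -0.53. Of them 7 were at least 1.5-fold lower and 0 higher, led by Fgd5 (-1.38), Mllt3 (-1.17), Hlf (-1.13) and Procr (-0.87). In all, 10 ratios lay below 0 and 4 above, those of Cd48 (0.49), Gata2 (0.20), Cd34 (0.15) and Kit (0.03). The summed signal of the 14 was 16034 on the knockout array and 17876 in wild type.

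Markers of other cells also differed between the arrays. All 13 granulocyte and monocyte markers with a probe set had ratios above 0 (median 0.65), 9 of them at least 1.5-fold higher, and their summed signal was 37058 on the knockout array and 23300 in wild type. Of 16 stromal and endothelial markers 9 were measured, with 4 at least 1.5-fold lower and 2 at least 1.5-fold higher. The signals of all 16, those under the floor included, summed to 2030 on the knockout array and 2100 in wild type. Pdgfrb (1049 on the knockout array, 556 in wild type) and Cxcl12 (57.4 and 461) moved these sums in opposite directions. Largest among the 9 measured were Cxcl12 (at least 7.63-fold lower), Emcn (-1.50), Pdgfrb (0.92) and Sparc (-0.86). Cxcl12 passed the floor through wild type alone, so the sign of its bound was set by the floor. The defining endothelial marker Cdh5 and the stromal markers Lepr, Kitl, Adipoq, Dcn, Col3a1 and Col1a1 did not exceed the floor on either array.

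Of the B cell list 7 of 10 genes were measured, with 3 at least 1.5-fold higher (Vpreb1, Igll1 and Blnk) and 1 lower (Ighm). Of the T and NK cell list 2 of 10 were measured (1 higher, Gzmb, and 0 lower). Of the erythroid list 5 of 11 were measured (1 higher, Tfrc, and 1 lower, Car1). Beside the counts of all marker lists stand the 1.71% higher and 2.63% lower of all measured genes at 1.5-fold. In bulk RNA, fewer cells of a type and less RNA per cell cannot be told apart, and the part of these marker differences in the signals of Fzd7 and Lgr4 was not tested.

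**Figure D4:**
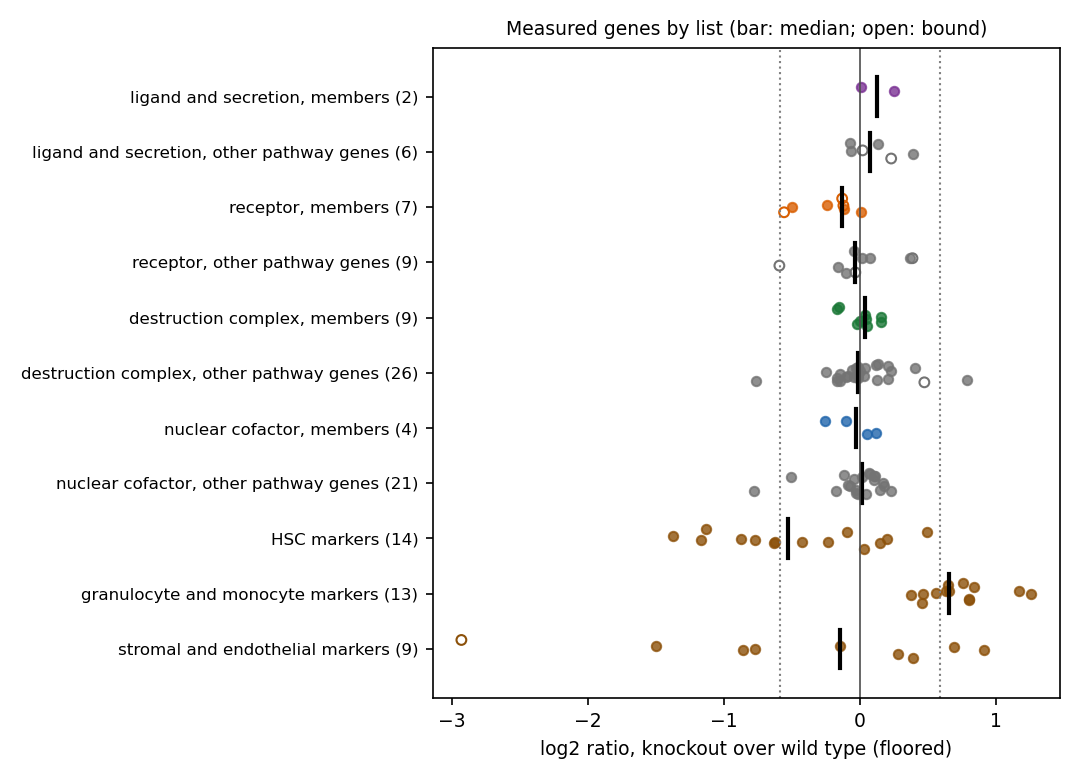
Log2 ratio of knockout over wild type (horizontal axis, floored) for the measured genes of each role, members above the other genes of the pathway, and of 3 marker lists, with the number of genes in parentheses; bars are medians, open circles are bounds and dotted lines mark 1.5-fold. With bounds included, the medians of the pathway lists lie between -0.13 and 0.13, against -0.53 for HSC markers and 0.65 for granulocyte and monocyte markers. The lower end is that of the receptor members and includes ratios whose sign the floor set. For the 4 receptor members above the floor on both arrays the median was -0.18. The upper end rests on 2 ligand and secretion members.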

How the data were processed

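RNA of HSC of 2 genotypes was hybridised on 1 array each. The authors deposited a linear signal intensity for each probe set, made with MAS5 per the submitters' processing notes, a method that summarises and scales each array by itself. The sources used here do not give its version, scaling target or detection calls. Median signals were 60.7 for the knockout and 60.8 for the wild type, and log2 signals correlated with r = 0.98 across probe sets, so the values were used as deposited.

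Of 45037 probe sets, 34945 name 1 gene, 932 several and 9160 none in the platform annotation; the latter 2 kinds were not used. List genes were matched through RefSeq identifiers (GRCm38.p6). The floor was the median mean log2 signal (5.92). Counts used 1.5-fold, and no test was run. Members, lists and thresholds were chosen with earlier results of these data known. All members were named, and of the other pathway genes those past 1.5-fold and the 3 with the largest ratio per role; of HSC and stromal markers, up to 4. Lef1, Axin2, Tcf7l1, Tcf7l2, Tle4, Tle5, Tle6, Wnt11, HSC markers with a ratio above 0 and markers under the floor were named after their values were seen. So were the markers named from the B cell, T and NK cell and erythroid lists. Alternatives were 3 scalings, 3 floors (percentiles 25 and 75, none), a pseudocount, 2 rules for probe sets and a size of 2-fold. The procedure was tested on simulated data with the same noise at every signal and changes planted only in brighter genes. That test therefore does not cover dim probe sets or bounds. Python 3.11.15, numpy 2.4.6, pandas 2.3.3, statsmodels 0.14.6 (loess, span 0.3) and matplotlib 3.10.9 were used.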

Additional observations from a re-analysis of the deposited data

How the results depend on the processing

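Of 189 member ratios recomputed under 9 alternatives, 183 moved by less than the SD between probe sets and 2 came out on the other side of 0. Many of the 189 could not move, since a member above the floor on both arrays keeps its ratio with a lower floor or none. The count is therefore not a measure of robustness. Counts here are at 1.5-fold, except in the 2-fold alternative, which counted at 2-fold. The count of members past this size on the higher side was 0 under all 10 alternatives. The count at least 1.5-fold lower was 1 with the floor at percentile 25 and 1 with no floor, in both cases Fzd3 (-0.99), because its knockout value is then no longer raised to the floor; it was 0 under the others. Measured members numbered 32 with the floor at percentile 25 and with none, 22 at the median and 13 at percentile 75. The share of all measured genes past 1.5-fold was 2.44% with that floor, 9.24% with no floor and 2.37% with a pseudocount. The share past 2-fold was 0.97%. The receptor median ran from -0.24 to -0.13 under the 9 alternatives that recompute it, a range that includes ratios whose sign the floor set. Reading the median over probe sets moved Lrp6 to -0.36 and Axin1 to 0.45. No paired analysis was possible because each genotype has 1 array. Dim probe sets limit the ligands and most Frizzled genes: under the floor, neither presence nor absence of a transcript can be read.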
